A study of Mus musculus with 860 samples.

Results

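The cells described here were GFI1+ IAHC cells of E10.5 mouse embryos, 27 in G1 and 89 in S or G2/M, split by the cell cycle phase that the authors had assigned to each cell. IAHC (intra-aortic haematopoietic clusters) are groups of round cells that bud from the HE (haemogenic endothelium) into the aorta of the AGM (aorta-gonad-mesonephros) region, and HSCs (haematopoietic stem cells) are found among them. Of 860 sequenced cells of the series, 775 were kept by the authors, and the cells described are all those of the 775 that were labelled as E10.5 GFI1+ IAHC. Those called S or G2/M are named cycling cells. The batch named GL78 was the main set, with 24 G1, 14 S and 49 G2/M cells on a single plate. The other batch, GL69, held 3 G1, 9 S and 17 G2/M cells, and its 3 G1 cells were fewer than the 5 set as the least for a comparison.

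All cells came from embryos of the Gfi1:tomato line, in which a tomato reporter marks cells that express Gfi1, with the strain given as CD1/Gf1+, and neither phase had received a treatment. The GL78 cells carried the stage label SP 32 to 33. AGMs of several embryos were pooled before the sort, no animal was named for a cell, and each phase therefore counted as a single summed sample. For that reason no test was possible between phases, and the intervals below are exact 95% intervals that cover counting error only. The comparison asks which transcripts and surface proteins differ between G1 and cycling cells of the clusters.

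A cell that prepares to divide passes from G1, where D cyclins act and replication origins are licensed, through S, where DNA is copied, to G2 and M, where chromosomes are segregated. E2F factors switch on the genes of DNA replication ahead of S phase, and a later group that contains cyclin B, Polo and Aurora kinases and the kinetochore is transcribed in G2 and M. Embryonic cluster cells are known to divide rapidly, whereas adult HSCs are mostly quiescent. The phases had been called with Cyclone, a classifier that compares pairs of genes within each cell, from the same reads that are counted here. Differences in cell cycle genes therefore describe the calls and are no independent finding. The gene pairs and per-cell scores of the classifier were not used here, so that cells near the border of 2 phases cannot be counted.

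Total counts per cell were alike across phases in GL78, with medians of 852916 in G1, 816035 in S and 846467 in G2/M and a range of 394471 to 1217620 over all 87 cells. G1, S and G2/M cells had reads from 8223, 8373 and 8766 genes in the median cell, and from 6682, 6774 and 7149 after each cell was thinned to 100000 counts. Mitochondrial reads made up a median of 1.2%, 1.1% and 1.1%.

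The G1 share was 27.6% in GL78 (24 of 87 cells, 95% interval 18.5 to 38.2%) and 10.3% in GL69 (3 of 29 cells, 2.19 to 27.4%). E11.5 GFI1+ IAHC of the same batch GL78 held 57.3% G1 cells (51 of 89, 46.4 to 67.7%), and those of GL53 and GL58 held 60.3% (73 G1 cells) and 33.3% (10 of 30). E10.5 GFI1+ HE of GL78 held 42.9% (39 of 91, 32.5 to 53.7%). The interval of the E10.5 IAHC of GL78 lay below those of the E11.5 IAHC of GL78 and GL53. It overlapped those of the E11.5 IAHC of GL58 and of the E10.5 HE. The stages lay on different plates, so that stage and plate cannot be told apart.

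Phase went together with the kind of cell. The authors' Louvain clusters, which they had computed after regressing out cell cycle effects, were unevenly filled. Cluster 2, which the authors had named HSC, held 62.5% of G1 cells (15 of 24, interval 40.6 to 81.2%), 57.1% of S cells (8 of 14, 28.9 to 82.3%) and 26.5% of G2/M cells (13 of 49, 14.9 to 41.1%). Clusters 0, 1 and 3 together held 32 of the 49 G2/M cells (11, 10 and 11 cells), 3 of the 24 G1 cells and 1 of the 14 S cells. Cluster 5 held 4 G1 and 3 S cells and no G2/M cell of the 49, where the floor of 3 cells used for a count of 0 corresponds to a share of 6.12%. Cluster 8, whose cells carried transcripts of primordial germ cells, held 5 of the 63 cycling cells and 0 of the 24 G1 cells, for which the same floor corresponds to 12.5%. The main list medians over all 87 cells are for this reason given next to those within cluster 2, where 15 G1 and 21 cycling cells (8 S and 13 G2/M) could be compared. No other cluster held 5 cells of both phases.

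**Figure D1:**
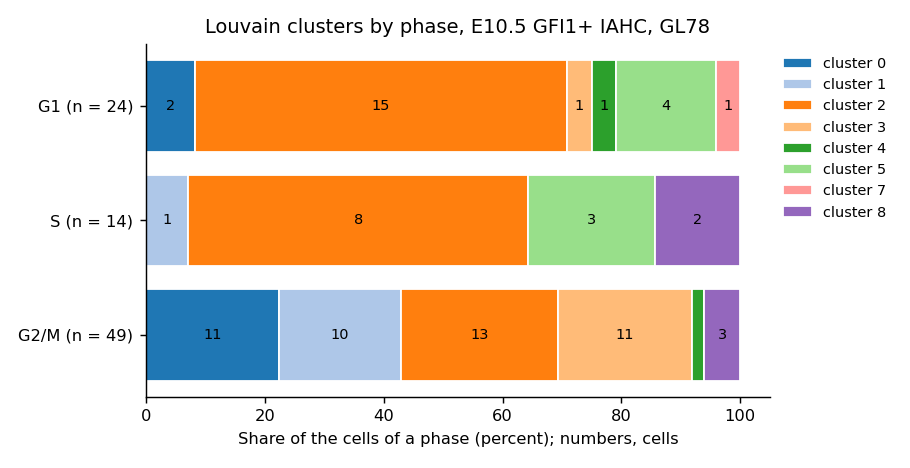
Share of the cells of each phase in each Louvain cluster (horizontal axis, percent) for E10.5 GFI1+ IAHC of GL78, with numbers of cells in the bars. Cluster 2 holds 15 of the 24 G1 cells but 13 of the 49 G2/M cells, and clusters 0, 1 and 3 are filled almost only by G2/M cells.

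The labels were checked against defining transcripts. Kit, the receptor used in the sort, had reads in all 24 G1 and all 14 S cells and in 45 of the 49 G2/M cells, and the endothelial gene Pecam1 had reads in 23, 13 and 48 cells. Runx1, the transcription factor needed for haematopoietic cells to emerge, had reads in 16 of 24 G1, 8 of 14 S and 15 of 49 G2/M cells, although every one of the 36 cells of cluster 2 had them. Ptprc, which encodes CD45, had reads in 6, 5 and 7 cells of G1, S and G2/M. Gfi1 itself had reads in 13 G1, 4 S and 11 G2/M cells.

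Genes of mitosis were the ones that set the phases apart, in all clusters and within cluster 2. Levels are given in CPM, in which each cell's or each sum's counts are scaled to the same total, and a single value is that of the summed cells. A log2 ratio is that of cycling over G1 cells after 1 CPM was added to both. Of 9527 genes with at least 10 CPM in either phase, 4.89% (466 genes) were at least 2-fold higher in cycling cells and 6.18% (589) at least 2-fold lower, and the median over all of them was -0.05. Within cluster 2 the percentages were 7.93% and 7.16% of 9405 genes, with a median of -0.01. These percentages are the background for the counts of list members below.

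To show the sequences that lie ahead of such genes, stretches of the 150 bases before the start of transcription are printed for 3 mitotic genes with high ratios, taken from RefSeq (GRCm38.p6, the build of the counts, mm10). Capitals mark CCAAT boxes (CCAAT, or ATTGG on the other strand) and the cell cycle homology region, CHR (TTTGAA or TTCGAA, or their reverse complements), elements known from promoters of G2/M genes. The 3 were picked by ratio from genes of the mitosis lists that held both elements in these bases. The presence of the elements in them was thus fixed by the choice. Ckap2l is at chr2:129297213-129297362 (minus strand), Ube2c at chr2:164769779-164769928 (plus strand) and Kif11 at chr19:37376232-37376381 (plus strand).
Ckap2l: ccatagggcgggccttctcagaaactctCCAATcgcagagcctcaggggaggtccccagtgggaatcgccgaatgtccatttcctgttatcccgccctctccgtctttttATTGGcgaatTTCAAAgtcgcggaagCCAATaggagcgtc
Ube2c: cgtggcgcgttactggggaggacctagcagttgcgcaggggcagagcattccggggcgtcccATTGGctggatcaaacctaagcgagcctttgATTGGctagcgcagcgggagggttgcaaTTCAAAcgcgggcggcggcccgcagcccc
Kif11: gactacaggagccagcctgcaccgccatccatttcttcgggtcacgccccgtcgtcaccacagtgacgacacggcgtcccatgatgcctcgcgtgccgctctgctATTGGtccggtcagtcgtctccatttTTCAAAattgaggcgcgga
In windows from 250 bases before to 50 after the start, 67.6% of the genes of the 3 mitosis lists that were matched (50 of 74, of 89 listed) held a CHR on either strand, compared with 21.7% of all 27025 genes in the table. A CCAAT box was held by 54 of the 74 against 41.1% of all genes, and both elements by 59.5% against 8.61%. A match is a description of the letters and not evidence of a bound site.

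The kinases and cyclins that drive mitosis were among the genes that set the phases apart. Of 29 measured members of the list of mitotic cyclins, kinases and regulators, 23 were at least 2-fold higher in cycling cells and 0 lower, with a median log2 ratio of 1.86 over all clusters and 1.61 within cluster 2. Plk1, the Polo kinase of mitotic entry, was at 0 in the median G1 cell (range 0 to 168.6 CPM), at 63.3 CPM in the median S cell (0 to 416) and at 290 in the median G2/M cell (0 to 1040). Reads of Plk1 were found in 5 of 24 G1 cells and in 48 of 49 G2/M cells. The summed level was 19.1 CPM in G1 (17.3 to 21.2) and 292.1 in cycling cells (287.5 to 296.7), a log2 ratio of 3.86. Ube2c, the ubiquitin-conjugating enzyme of the anaphase-promoting complex, reached a log2 ratio of 3.55, Aurora kinase A (Aurka) 3.46, the checkpoint kinase Bub1 3.34 and separase (Espl1) 3.30. Ccnb1, encoding cyclin B1, ran from 0 to 198.4 CPM in G1 cells with a median of 46.1, from 57.9 to 898 in S cells (median 123.4), and from 33.3 to 1345 in G2/M cells (median 285.98). Hence single G1 cells overlapped the lower G2/M cells, and 1 of 24 reached the lower quartile of the G2/M cells. At the other end of the list were Ccnb2, at 140 CPM in G1 and 167.8 in cycling cells (log2 ratio 0.25), and Cdc25b at 0.09. Cyclin B2 was thus present in most cells of each phase, with reads in 22 of 24 G1 cells.

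Kinetochore and spindle genes went the same way. Of 24 measured centromere and kinetochore genes, 20 were at least 2-fold higher in cycling cells and 0 lower, with a median of 1.87 (1.87 within cluster 2). Cenpf, which sits on kinetochores in mitosis, was at 6.59 CPM in G1, 50.5 in S and 170.9 in G2/M cells. Sgo2a, which protects centromeric cohesion, had a log2 ratio of 3.80 and the Ndc80 complex member Spc25 one of 3.55, whereas Cenpk and Cenpm, which remain at centromeres through the cycle, had ratios of 0.45 and 0.31. Of 35 spindle, chromosome and cytokinesis genes, 29 were at least 2-fold higher and 0 lower, with a median of 2.26 (2.25 within cluster 2). The highest were the spindle protein gene Ckap2l at 4.62 and the kinesin gene Kif2c at 4.22, followed by Hmmr at 3.99. Stmn1 (log2 ratio -0.21) and Cdca7 (-0.44) were the lowest. Top2a, the topoisomerase that untangles chromosomes, was at 37.1 CPM in the median G1 cell, 131.6 in the median S cell and 381.3 in the median G2/M cell. Mki67, the gene of the proliferation antigen Ki-67, had reads in 14 of 24 G1, 12 of 14 S and 49 of 49 G2/M cells, with medians of 26.6, 195.4 and 297.02 CPM and ranges of 0 to 358.4, 0 to 490 and 39.2 to 1229. Most G1 cells thus retained Mki67 reads, and 3 of them reached the lower quartile of G2/M cells.

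**Figure D2:**
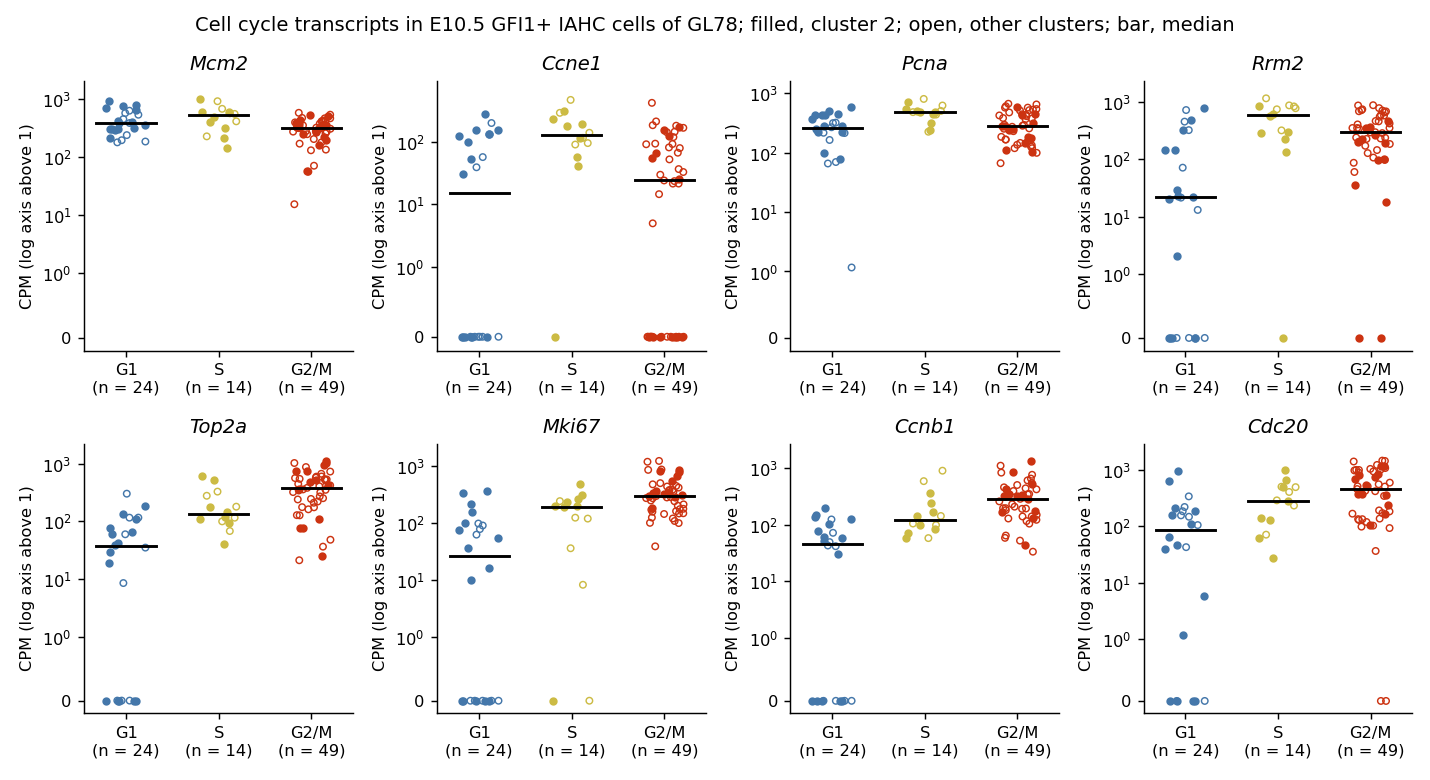
CPM of 8 cell cycle genes in each E10.5 GFI1+ IAHC cell of GL78 (vertical axis, logarithmic above 1 CPM) by phase, with filled points for cluster 2, open points for other clusters and a bar at the median. Mcm2 and Pcna have reads in the cells of all 3 phases with broad overlap, Pcna and Ccne1 have their highest medians in S cells, and Top2a, Mki67, Ccnb1 and Cdc20 have low medians in G1 with single cells in the range of G2/M cells.

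In contrast to mitosis, the replication machinery differed little between G1 and cycling cells. Of 22 genes of replication licensing and origin firing, 3 were at least 2-fold higher and 0 lower, with a median log2 ratio of 0.16 (0.06 within cluster 2). The replicative helicase gene Mcm2 was at 435 CPM in G1 (426 to 444), 503 in S and 301.1 in G2/M cells, and ran from 177.2 to 925 CPM over single G1 cells, from 140 to 1004 over S cells and from 15.3 to 571 over G2/M cells. All 24 G1 cells had Mcm2 reads, and 19 of them reached the lower quartile of G2/M cells. The 3 members past 2-fold were Dbf4 (1.37), the activator of the Cdc7 kinase, Mcm10 (1.21) and the GINS helicase subunit gene Gins1 (1.16), while Mcm2 (-0.33) and Wdhd1 (-0.32) were the lowest. The list of DNA synthesis and nucleotide supply had 2 of 31 members at least 2-fold higher, among them the ribonucleotide reductase subunit Rrm2 (1.27), and a median of 0.38 (0.31 within cluster 2). Tk1, thymidine kinase, had a ratio of 0.79, while Ung (-0.49) and Rfc1 (-0.17) were lowest. The sliding clamp gene Pcna was at 274.3 CPM in G1, 482 in S and 310.7 in G2/M cells. Of 17 chromatin copying genes 3 were at least 2-fold higher, which were the histone chaperone Asf1b (1.75), Hmgb2 (1.23) and H2afx (1.16), with a median of 0.25 (0.20 within cluster 2). Of 9 measured replication-dependent histone genes, 6 were at least 2-fold higher and 0 lower, with a median of 1.69 (2.09 within cluster 2). The linker histone gene Hist1h1e was at 15.9 CPM in G1 and 71.03 in cycling cells. Most histone messages lack a poly(A) tail, so that a poly(A)-primed library holds few of their reads.

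Several genes of DNA replication and of the E2F list had their highest levels in S cells. Printed next are the same 150 bases of 3 genes of the replication and E2F lists. Capitals mark the E2F element (TTTCCCGC, TTTGGCGC or TTTCGCGC, either strand). The 3 had the highest S over G1 ratios among genes that held an element there, after genes were passed over as for the mitotic genes above. Cdc6 is at chr11:98908001-98908150, Cdc25a at chr9:109875429-109875578 and Mcm5 at chr8:75109359-75109508, all on the plus strand.
Cdc6: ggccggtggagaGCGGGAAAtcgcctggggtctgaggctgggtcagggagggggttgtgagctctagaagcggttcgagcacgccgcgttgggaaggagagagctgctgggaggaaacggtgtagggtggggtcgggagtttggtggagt
Cdc25a: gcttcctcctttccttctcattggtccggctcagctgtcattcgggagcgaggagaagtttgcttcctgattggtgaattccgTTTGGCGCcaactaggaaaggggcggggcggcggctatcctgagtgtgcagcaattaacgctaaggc
Mcm5: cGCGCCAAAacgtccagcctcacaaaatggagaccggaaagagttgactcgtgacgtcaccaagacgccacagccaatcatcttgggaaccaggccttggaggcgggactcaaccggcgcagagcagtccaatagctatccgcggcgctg
Of all 27025 genes, 2.12% held such an element between 250 bases before and 50 after the start. For the replication and E2F lists 54 of 68 genes were matched, fewer than the 80% set as the least, so that their share is void and not given.

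Against G1, 7.26% of 9672 genes were at least 2-fold higher in S cells, and 5.28% of 9532 genes were higher and 7.34% lower in G2/M cells. Licensing genes had a median log2 ratio of 0.51 in S over G1 and of -0.06 in G2/M over G1, with 4 and 2 of 22 members at least 2-fold higher. DNA synthesis genes had 0.67 and 0.26, with 3 and 2 of 31 members at least 2-fold higher. E2F factors and cyclin E had a median of 0.40 in S over G1, with 5 of 14 members at least 2-fold higher and 0 lower, and over all cycling cells of 0.25 (0.19 within cluster 2) with 2 of 14 higher. Cdc6, the loader of the helicase, was at 72.3 CPM in G1, 267.8 in S and 55.8 in G2/M cells. Mcm5 was at 431, 703 and 400 CPM, and Cdc25a, a phosphatase that activates CDK2, at 66.9, 118.4 and 72.8. Ccne1, encoding cyclin E1, was at 66.8, 162.2 and 54.1 CPM, with reads in 12 of 24, 13 of 14 and 30 of 49 cells. E2f8, a late repressor of E2F genes, was at 14.6, 62.6 and 11.4 CPM, and E2f1 at 22.98, 63.6 and 26.6 CPM. Ung, the uracil-DNA glycosylase, was also highest in S cells, with 176.3 CPM in G1 (170 to 182.3), 353.4 in S and 62.3 in G2/M cells. Mitotic genes were already higher in S than in G1, with 21 of 29 members at least 2-fold higher and a median of 1.67, compared with 23 of 29 and 2.04 for G2/M over G1.

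Set against each other, G2/M cells had 8.26% of 9471 genes at least 2-fold higher than S cells and 6.39% lower. Mitotic, kinetochore and spindle lists had medians of 0.57, 0.64 and 0.90 in G2/M over S, with 9 of 29, 9 of 24 and 16 of 35 members at least 2-fold higher and none of their measured members lower. E2F and licensing lists had medians of -0.57 and -0.52. Outside the cell cycle, endothelial and haematopoietic lists stood on opposite sides. Of 18 general endothelial genes 6 were at least 2-fold higher in G2/M cells and 0 lower (median 0.86), and of 17 haematopoietic surface genes 8 were lower and 1 higher (median -0.99). All 7 measured myeloid genes were at least 2-fold lower in G2/M cells, among them Cpa3, described below. No read of the myeloid list was found in 25 of the 63 cycling cells. The S values are sums over 14 cells, and the part of single cells in the myeloid values was not tested. The genes taken by the naming rule as highest in G2/M cells were Ptprd, Thbd (thrombomodulin), Enc1, Mcc, Hapln3 and Zbtb20. Thbd was at 28.4 CPM in G2/M and 0.43 in S cells, and had reads in 24 of 49 and 1 of 14 cells. The genes highest in S cells were Cpa3 (a mast cell and progenitor protease), Tnf, Ramp1, Tespa1, Runx3 and Ptprcap. Cpa3 was at 86.1 CPM in S and 0.67 in G2/M cells, and its reads lay in 4 of 14 S cells and 1 of 49 G2/M cells, so that a few cells carried this difference. Clusters 0, 1 and 3 held 32 G2/M cells and 1 S cell, and their part in these values was not tested.

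No measured member of the D cyclin list or the CDK inhibitor list passed 2-fold between cycling and G1 cells over all clusters. Some members did within cluster 2. The 7 measured genes of the list of D cyclins, CDK4/6 and pocket proteins had a median of 0.07, with 0 past 2-fold in either direction, and a median of 0.01 within cluster 2, with 0 of 8 higher and 1 lower. The 4 measured CDK inhibitors had a median of 0.30, and of 0.92 within cluster 2, where 2 of 4 were at least 2-fold higher, Cdkn3 (1.28) and Cdkn1a (1.03). Ccnd2, encoding cyclin D2, was the most abundant D cyclin, with a summed level of 656 CPM in G1 (645 to 668) and 376.7 in cycling cells (371.5 to 381.9), a log2 ratio of -0.80. Single cells ran from 119.1 to 1202 CPM in G1 (median 617), from 0 to 1617 in S (median 411) and from 0 to 1201 in G2/M (median 304.7), with broad overlap. Within cluster 2 the log2 ratio was -0.68. It was -0.92 in E10.5 GFI1+ HE, and -0.59, -1.24 and -0.77 in E11.5 GFI1+ IAHC of GL53, GL58 and GL78. Ccnd3 was at 366.1 CPM in G1 and 383.1 in cycling cells. Ccnd1, at 81.3 and 132.003 CPM over all clusters (log2 ratio 0.69), had a ratio of -2.14 within cluster 2, where it was low in both phases (32.03 and 6.51 CPM). Cdk6 had a ratio of -0.73 over all clusters and -0.01 within cluster 2. Of the CDK inhibitors, Cdkn1c (p57) was the most abundant, at 280 CPM in G1 and 151.2 in cycling cells, a ratio of -0.88 that was -0.29 within cluster 2. Cdkn1a (p21) was at 32.7 CPM in G1, 92.9 in S and 19.02 in G2/M cells, and was higher in cycling cells of cluster 2 (80.7 against 39.02 CPM, log2 ratio 1.03). Cdkn1b (p27) was at 3.78 and 5.93 CPM. Cdkn2c (p18) had no read in G1 cells and 0.54 CPM in cycling cells.

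Most genes of growth were alike in G1 and cycling cells. Of 22 cytosolic ribosomal proteins and 22 ribosome biogenesis genes, 0 passed 2-fold in either direction, with medians of -0.05 and -0.08. Lists of nuclear-encoded oxidative phosphorylation (median 0.09, 0 of 21 past 2-fold), chaperones (0.01, 0 of 18), and serine, one-carbon and purine synthesis (-0.01, 0 of 21) were similar. With the phases apart, ribosome biogenesis had medians of 0.26 in S over G1, -0.17 in G2/M over G1 and -0.42 in G2/M over S. Serine, one-carbon and purine synthesis had 0.29, -0.08 and -0.41, and cytosolic ribosomal proteins 0.01, -0.06 and -0.10. The RNA polymerase I subunit gene Polr1b, at 95.6 CPM in G1 and 51.7 in cycling cells (log2 ratio -0.87, and -0.88 within cluster 2), was the lowest ribosome biogenesis gene. Glycolysis genes had a median of 0.36 with 2 of 18 higher, Pfkp (2.24) and the lactate exporter Slc16a3 (1.47), and 1 lower, the hexokinase Hk2 (-1.18). Within cluster 2 the glycolysis median was 0.00, and Pfkp had a ratio of 0.21. Immediate early genes had a median of -0.09 (0.56 within cluster 2), with Atf3 highest at 0.78 and Egr2 lowest at -2.49. Egr1 and Myc had ratios of -0.26 and -0.07. Of 18 measured p53 target and quiescence genes, 0 were at least 2-fold higher and 1 lower, a share near the 6.18% of all genes, and the median was -0.34 (-0.64 in S over G1). Within cluster 2, 3 of 16 were lower and 0 higher, Tob1, Ccng1 (-1.34) and Gadd45b (-1.07), with a median of -0.20. The member lower over all clusters was the anti-proliferative gene Tob1, at 19.97 CPM in G1 and 8.06 in cycling cells (log2 ratio -1.21, and -1.39 within cluster 2).

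**Figure D3:**
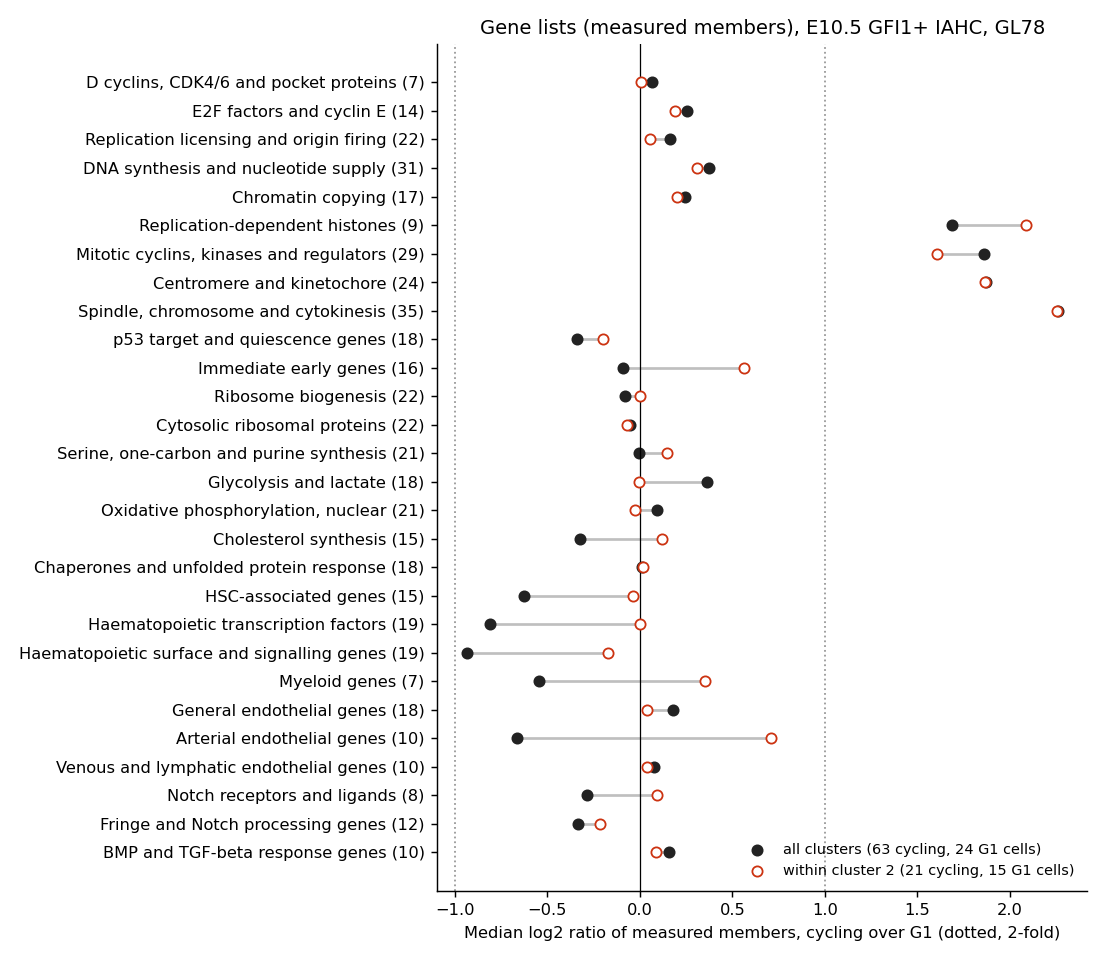
Median log2 ratio of cycling over G1 cells (horizontal axis) for lists with at least 7 measured members over all clusters (filled, 63 cycling and 24 G1 cells) and within cluster 2 (open, 21 and 15 cells), with the number of measured members in parentheses. The mitosis and histone lists lie beyond 1 in both, while haematopoietic lists lie between -0.5 and -1 over all clusters and near 0 within cluster 2.

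Haematopoietic genes were lower in cycling cells over all clusters, and most of this difference was not found within cluster 2. Of 19 haematopoietic surface and signalling genes, 6 were at least 2-fold lower and 0 higher, with a median of -0.93, which was -0.17 within cluster 2 (2 lower and 1 higher of 19). Of 19 haematopoietic transcription factors, 6 were lower and 1 higher (median -0.81, and 0.00 within cluster 2), and of 15 HSC-associated genes 3 were lower and 0 higher (-0.62, and -0.04 within cluster 2). Runx1 was at 157.6 CPM in G1 and 67.1 in cycling cells over all clusters, and at 250 and 201.3 within cluster 2. In single cells of cluster 2 Runx1 ran from 111.95 to 570 CPM in G1 (median 208.02) and from 20.2 to 410 in cycling cells (median 202.01), and these ranges overlapped almost fully. The receptor gene Kit had log2 ratios of -0.93 over all clusters and -0.45 within cluster 2, Myb of -0.86 and -0.02, Itga2b (CD41) of -0.83 and 0.01, Ptprc of -0.54 and 0.34, and Mecom of -0.98 and -0.04. Procr went from -0.36 to 0.31, Mllt3 from -0.52 to -0.08, and Gfi1 from -0.32 to 0.46. The master regulator of myeloid fate Spi1 had ratios of -1.34 and -0.43, Nfe2 -1.60 and -0.71, and Bcl11a -1.60 and -0.78. Since phases differ in the clusters they fill, fewer haematopoietic cells and less RNA per cell cannot be told apart in the values over all clusters.

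Within cluster 2, members at least 2-fold lower numbered 2 of the 19 surface genes, 0 of the 19 transcription factors and 1 of the 15 HSC-associated genes, against 7.16% of all genes. Hlf, a transcription factor of HSCs, was at 43.05 CPM in G1 (40.2 to 46.05) and 11.4 in cycling cells (10.51 to 12.3), a log2 ratio of -1.83, and at 68.5 and 33.8 CPM within cluster 2, a ratio of -0.997. In cluster 2 single cells ran from 0 to 293.98 CPM in G1 (median 48.3, with reads in 11 of 15 cells) and from 0 to 140.5 in cycling cells (median 17.4, 14 of 21 cells). The members past 2-fold within cluster 2 were Prdm16, with ratios of -1.58 over all clusters and -1.07 within cluster 2, Vav1 with -1.90 and -1.19, and Flt3 with -2.36 and -1.75, although reads of Flt3 were in 3 G1 and 2 cycling cells. The Hlf ratio in other cells was -1.76 in E10.5 HE and 0.12, -1.65 and -0.70 in E11.5 IAHC of GL53, GL58 and GL78. Against the others, Gata1, the erythroid and megakaryocytic factor, was higher in cycling cells (log2 ratio 2.89, and 3.97 within cluster 2), with reads in 1 of 24 G1 cells and 4 of 63 cycling cells. Myeloid genes had a median of -0.55 over all clusters and 0.35 within cluster 2. Mpo, the myeloperoxidase gene, was at 290 CPM in G1, 608 in S and 85.9 in G2/M cells, and single cells of each phase ranged from 0 to over 2000 CPM (highest 5303, 4650 and 2330). A single cell held 78.6% of the Mpo reads of G1 cells.

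General endothelial genes differed less than haematopoietic genes between G1 and cycling cells over all clusters. Of 18 measured, 0 passed 2-fold in either direction (median 0.18). Sox17 was highest at 0.89 and Tie1 lowest at -0.62, with Cdh5 at -0.35 and Pecam1 at 0.31. Taken apart, S over G1 had a median of -0.58 and G2/M over G1 one of 0.34. Within cluster 2 the median was 0.04, with 2 of 18 at least 2-fold higher and 0 lower, against 7.93% and 7.16% of all genes. The median of the arterial list had opposite signs over all clusters and within cluster 2. Of 10 measured, 3 were at least 2-fold lower over all clusters, Unc5b (-1.03), Gja5 (-1.21) and Vegfc (-1.30), with a median of -0.66. Within cluster 2, 3 of 10 were at least 2-fold higher and 0 lower, with a median of 0.71, and these were Bmx (2.01), Gja5 (1.77) and Gja4 (1.30). Summed over the whole list of 14, arterial genes were at 303.7 CPM in the 15 G1 cells of cluster 2. They were at 443.8 CPM in its 21 cycling cells. The part of single cells in the cluster 2 values was not tested. Over all clusters a single G1 cell held 72.8% of the Gja5 reads of G1 cells and a single cycling cell held 83.2% of those of cycling cells. Of the Notch pathway, the receptor gene Notch1 was at 94.1 CPM in G1 and 111.02 in cycling cells, and Dll4 at 59.6 and 87.4. Jag1 was at 23.9997 and 13.3 CPM over all clusters and at 9.19 and 9.20 within cluster 2. Hes1 was at 63.8 and 44.6 CPM over all clusters and at 12.6 in both phases of cluster 2, and the fringe gene Rfng at 31.9 and 18.02 over all clusters and at 38.04 and 28.4 within cluster 2.

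Jag2, which encodes the Notch ligand JAGGED2, was the lowest Notch gene in cycling cells. It was at 56.5 CPM in G1 (53.2 to 59.9) and at 11.52 in S and 9.89 in G2/M cells, with 10.2 in both together (9.40 to 11.1) and a log2 ratio of -2.35. Reads were found in 13 of 24 G1 cells and 16 of 63 cycling cells, and in 12 and 15 cells after thinning. Single cells ran from 0 to 290 CPM in G1 (median 12.1), from 0 to 78.7 in S (median 0) and from 0 to 141.3 in G2/M (median 0), so that the groups overlapped. The most strongly expressing G1 cell held 28.03% of the G1 reads, and without the highest cell of each phase the ratio was -2.25. Within cluster 2 Jag2 was at 54.5 and 14.2 CPM (log2 ratio -1.87), with reads in 10 of 15 G1 and 8 of 21 cycling cells. The ratios were -1.92 in E10.5 GFI1+ HE and -0.80, -0.99 and -2.75 in E11.5 GFI1+ IAHC of GL53, GL58 and GL78. The 3 G1 cells of GL69 had no Jag2 read, whereas its 26 cycling cells had 9.16 CPM. Notch2 had a ratio of -1.48 over all clusters and -0.38 within cluster 2. Dll1 was the only Notch gene at least 2-fold higher in cycling cells (1.19), and its ratio was 0.00 within cluster 2. There 6 of the 8 Notch receptors and ligands reached the minimum of 10 CPM. With 1 CPM added, a gene without reads also has a ratio of 0.00.

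Outside the cell cycle lists, the 12 genes with the largest ratio in each direction are named here, each of which had reads in at least 25% of the cells of its higher phase and passed 2-fold also without its highest cell in each phase. Those higher in cycling cells were Sapcd2, Gtse1, Kcne3, Lzts1, Cenpl, Prdm1, Gpsm2, Cntrob, Ankle1, Mxd3, Socs2 and Gpihbp1. Several have known roles in division, as Gtse1 (a microtubule-binding protein of G2 and S), Cenpl (a centromere protein), Gpsm2 (a spindle orientation protein) and Cntrob (a centriole protein). Sapcd2, which also acts in spindle orientation, was at 0.10 CPM in G1 (0.01 to 0.37, 2 counts), 13.2 in S and 49.4 in G2/M cells, a 408-fold ratio with a counting interval of 112.7 to 3368. Its reads lay in 1 of 24 G1 cells, 3 of 14 S cells and 27 of 49 G2/M cells. Gtse1 was at 1.84 CPM in G1 and 66.4 in cycling cells, with reads in 4 of 24 and 48 of 63 cells and in 2 and 46 after thinning. Lzts1 and Gpsm2 had no read in G1 cells, and were higher in cycling cells by at least 131.5-fold and 82.6-fold when 3 counts over the G1 cells were set as the floor. Mxd3, a partner of MAX, had 1 count in G1 cells and 13.1 CPM in G2/M cells, and 0 CPM in S cells, a 200.9-fold ratio of cycling over G1 with a counting interval of 35.9 to 7950.

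Of these 12 genes, 10 had ratios past 2-fold within cluster 2 as well, from 1.56 for Mxd3 to 6.00 for Ankle1. The background there was 7.93% of all genes, and the cluster 2 cells were among those that chose the 12. Some of the 10 lay under the minimum of 10 CPM there. Mxd3 and Gpihbp1 were at 2.19 and 2.69 CPM in cycling cells, each with reads in 1 cell. Socs2 and Lzts1 were at 3.54 and 7.35 CPM, with reads in 4 and 3 cells. The exceptions were Kcne3, a potassium channel subunit (log2 ratio 4.44 over all clusters and -0.04 within cluster 2), and Prdm1, the transcriptional repressor BLIMP1 (3.68 and 0.08). In E10.5 HE and in the 3 batches of E11.5 IAHC, the ratios of Sapcd2 lay between 3.46 and 4.85, those of Gtse1 between 2.82 and 3.57, those of Cenpl between 2.91 and 4.80, those of Ankle1 between 3.01 and 5.22 and those of Mxd3 between 3.52 and 5.24. In these 4 sets Lzts1, Socs2 and Gpihbp1 lay between -0.80 and 0.87.

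The 12 genes lower in cycling cells were Lyve1, C8g, Adamts5, Ccdc40, Akap5, Fgd3, Selplg, Rhbdd1, P2ry2, Capn5, Aebp1 and Ddb2. They were low genes carried by a part of the G1 cells, with reads in 6 to 13 of the 24. When the highest cell of each phase was left out for every gene, 7.68% of 8996 genes were at least 2-fold higher and 3.72% lower, against 4.89% and 6.18% with all cells. Ddb2, a DNA damage recognition protein and p53 target, was at 21.9 CPM in G1 (19.9 to 24.1) and 3.73 in cycling cells (3.23 to 4.28), with reads in 13 of 24 and 7 of 63 cells (11 and 6 after thinning). Its log2 ratio was -2.28, and -2.32 within cluster 2. In G1 cells Ddb2 ran from 0 to 167.1 CPM with a median of 7.1, while the median S and G2/M cells had none. Akap5, an anchor of protein kinase A, was at 16.3 and 1.88 CPM, with reads in 11 and 5 cells. Lyve1, the hyaluronan receptor of lymphatic and yolk sac endothelium, was at 32.6 and 2.03 CPM, and a single cell held 64.8% of its G1 reads and another 89.9% of its cycling reads. Selplg, the selectin ligand of blood cells, had a ratio of -2.31 and -1.61 within cluster 2. Within cluster 2, 11 of the 12 were at least 2-fold lower, from -1.19 for Aebp1 to -3.70 for Capn5, and P2ry2 was at -0.89. The background there was 7.16% of all genes. The cluster 2 cells were among those that chose the 12, so that this count is no independent support. Adamts5 was at 3.17 CPM in G1 cells of cluster 2, with reads in 1 of them. In the other 4 sets these genes went both ways. Ddb2 had -0.47 in E10.5 HE and -0.81, -0.76 and 0.88 in E11.5 IAHC, and Lyve1 had 0.02, -1.17, 3.56 and 0.44. Adamts5 (-0.14 to -1.91) and Capn5 (-0.52 to -3.05) were lower in cycling cells in all 4 sets.

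**Figure D4:**
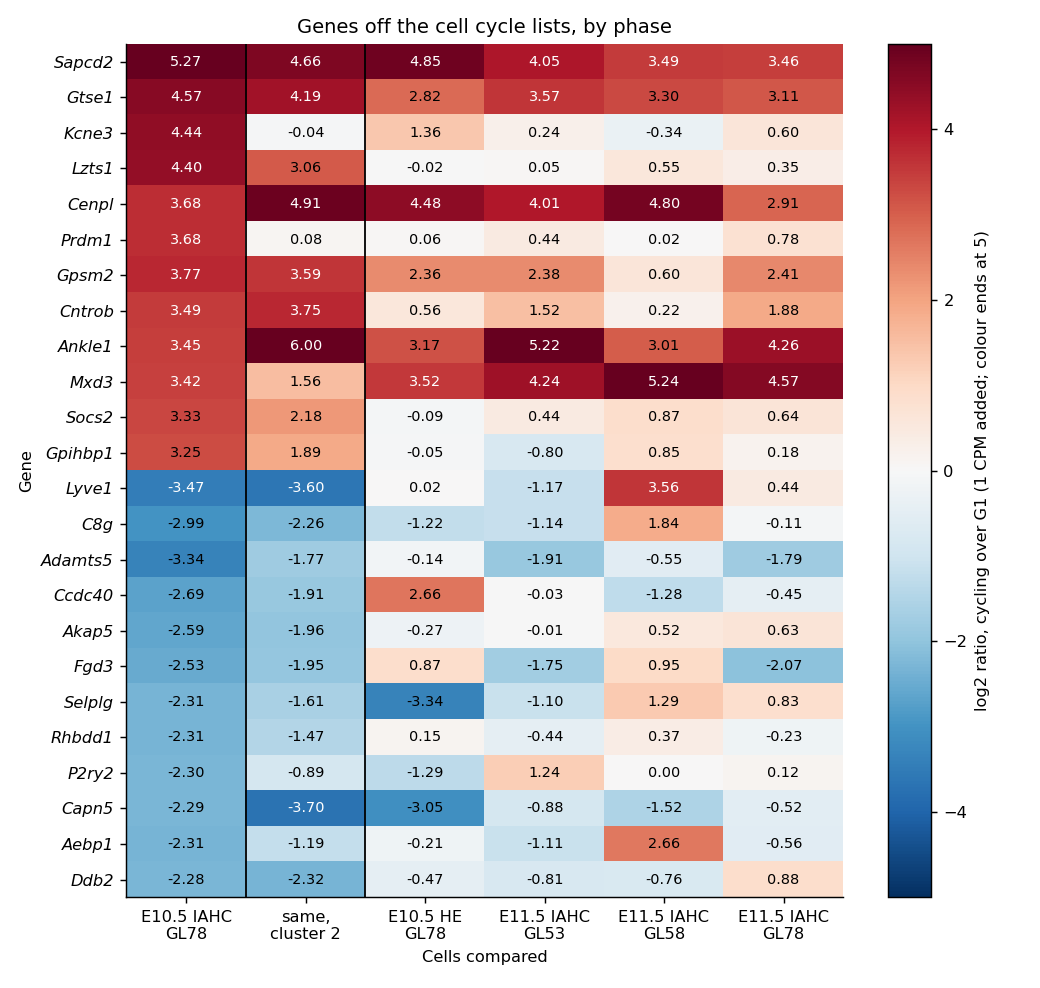
Log2 ratio of cycling over G1 cells (colour and number) for the 12 genes highest and the 12 lowest in cycling cells outside the cell cycle lists (rows) in E10.5 GFI1+ IAHC of GL78, the same cells within cluster 2, E10.5 GFI1+ HE and 3 batches of E11.5 GFI1+ IAHC (columns). Sapcd2, Gtse1, Cenpl, Ankle1 and Mxd3 exceed 1 in all 6 columns, whereas most of the 12 lower genes have values of both signs in the columns to the right.

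Cells of other types were looked for in both phases. Of 8 measured primordial germ cell genes 6 were at least 2-fold higher in cycling cells and 0 lower, with a median of 3.28, also with the 3 members at 0 counts in G1 set to their bounds (3.28). Dppa3 was at 86.3 CPM in cycling cells with no read in G1 cells, at least 563-fold higher with the same floor, and its reads came from 5 cycling cells. The 5 cells of cluster 8 held 75.2% of the reads of the germ cell list in cycling cells. In cluster 2 Dppa3, Tfap2c and Pou5f1 had no reads in either phase. Without clusters 6 to 10 the list median was -0.78 over 4 members. Summed over the whole list, macrophage genes were at 94.7 CPM in G1, 180.6 in S and 51.9 in G2/M cells, and erythroid genes at 78.6, 35.9 and 52.6. Megakaryocyte and platelet genes were at 269.9, 295.1 and 244.8, mast cell and basophil genes at 132.6, 243.7 and 95.2, mesenchyme and mural genes at 178.98, 230.6 and 69.5, and coelomic and mesonephric epithelium genes at 109.2, 143.6 and 40.1. No read of the macrophage list was found in 15 of 24 G1 and 38 of 63 cycling cells. Their part in the differences above was not tested.

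Surface proteins and the reporter were recorded by the sorter for each of the 87 cells, as fluorescence intensity in linear units, and are independent of the reads that gave the phase. The GFI1 reporter had a median of 898 in G1, 518 in S and 496 in G2/M cells, with ranges of 221.4 to 2612, 209.4 to 2236 and 208.3 to 4884. Within cluster 2 the order was another, with 1526 in G1, 1457.6 in S and 2112 in G2/M cells. cKIT followed the same course over all clusters (678, 561 and 501), and within cluster 2 it was at 1069, 1024 and 779. CD41, an early haematopoietic integrin, was at 786, 730 and 590 over all clusters, and at 1151, 1327 and 1352 within cluster 2. CD45, which marks later clusters, had medians of 562, 568 and 666 over all clusters, and of 529, 3841 and 1063 within cluster 2. The quartiles of CD45 in cluster 2 ran from 380 to 1125 in G1, from 525 to 6503 in S and from 701 to 1955 in G2/M cells, so that the S cells of this cluster included several with high CD45.

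NOTCH1 protein had a higher median in G2/M than in G1 cells. The median was 469 in G1 (202.6 to 1266), 538 in S (284.4 to 1428) and 956 in G2/M cells (262.6 to 1813), with quartiles of 437 to 587 in G1 and 657 to 1178 in G2/M cells that did not overlap. Within cluster 2 the medians were 456, 438 and 613, with quartiles of 366.95 to 473 in G1 and 563 to 777 in G2/M cells. Outside cluster 2 they were 575, 697 and 982, over 9 G1, 6 S and 36 G2/M cells. JAG1 was at 7167, 6518 and 9287 over all clusters and at 5578, 5270 and 9594 within cluster 2, where the quartiles ran from 3882 to 8318 in G1 and from 6318 to 12894 in G2/M cells. CD31 was at 21096, 17714 and 32460, and at 20409, 10455 and 35765 within cluster 2. DLL4 was near the zero of the scale, at 9.8, 18.1 and 64.3 over all clusters. NOTCH2 medians lay below zero in each phase. In cluster 2, GFI1, CD41, CD45, CD31, NOTCH1, JAG1 and DLL4 thus had higher medians in G2/M than in G1 cells, and cKIT had a lower one. Cell size was not among the signals used here, and its part in these values was not tested.

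**Figure D5:**
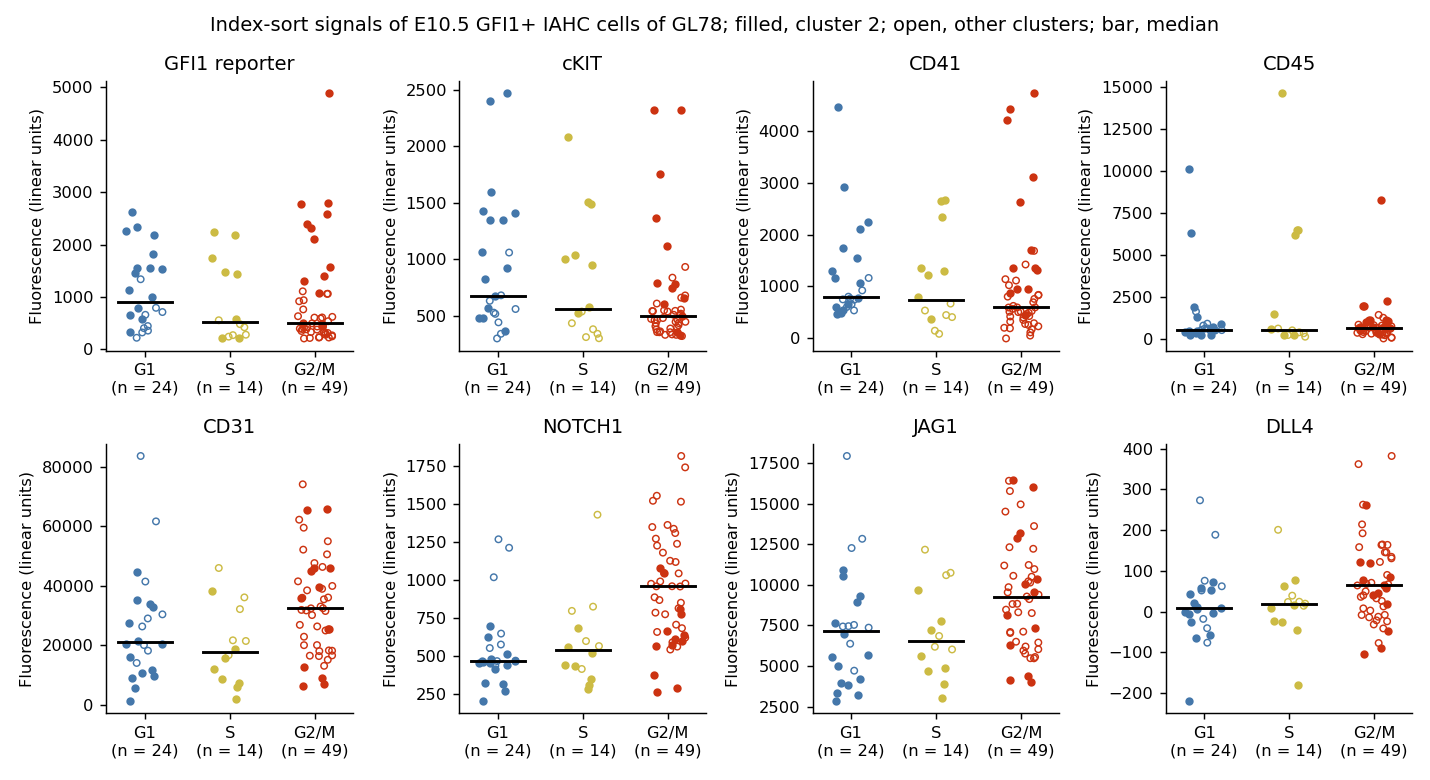
Fluorescence recorded by the sorter (vertical axes, linear units) for the GFI1 reporter and 7 surface proteins in each E10.5 GFI1+ IAHC cell of GL78 by phase, with filled points for cluster 2, open points for other clusters and a bar at the median. NOTCH1 medians are 469, 538 and 956 in G1, S and G2/M, and the highest GFI1 signals of each phase are those of cluster 2 cells.

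The mitotic lists had their smallest ratios in E10.5 IAHC among the sets given side by side. The median log2 ratio of mitotic cyclins, kinases and regulators was 1.86 in E10.5 IAHC, 2.42 in E10.5 HE, and 3.43, 2.34 and 2.60 in E11.5 IAHC of GL53, GL58 and GL78. For spindle genes the values were 2.26, 2.38, 3.35, 2.53 and 3.13, and for DNA synthesis genes 0.38, 0.68, 1.13, 0.30 and 1.01. Haematopoietic surface genes had -0.93 in E10.5 IAHC, -1.78 in E10.5 HE and 0.04, -0.51 and 0.06 in E11.5 IAHC. These sets differ in stage, plate and cluster makeup, and no test of the differences between them was possible.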

How the data were processed

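Cells were sorted from pooled AGMs in independent experiments, with doublets and dead cells gated out, and each was sequenced with Smart-Seq2, which has no molecular identifiers. The deposited counts were made by the authors, who aligned reads to mm10 and counted them per gene, with STAR 2.7.3, HTSeq 0.9.1 and Scanpy 1.4.4 named in the submitters' processing notes. The cell annotation deposited by the authors gave the mitochondrial fraction of each cell's reads, the index-sort fluorescence intensity per marker, the phase (Cyclone) and the Louvain cluster. A table of normalized values was not used. The count table held 46078 genes with 92 spike-ins at 0 counts, and 45143 were matched to symbols (counts without one, 0.068%).

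The counts of the cells of each phase were summed and scaled to CPM (Python 3.11.15, pandas 2.3.3, numpy 2.4.6, scipy 1.17.1, matplotlib 3.10.9; TMM factors from edgeR 4.0.16 in R 4.3.3). No doublet caller was run. Log2 ratios used a pseudocount of 1 CPM, and genes needed 10 CPM in the higher phase. No animal was named for any cell, so a phase was 1 sample and no test was made. Poisson and Clopper-Pearson intervals (95%) and the floor of 3 counts cover counting error only. The computation was tested on simulated data.

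Named genes were on no cell cycle list, had reads in at least 25% of the cells of the higher phase and passed 2-fold with and without the highest cell in each phase. Of these the 12 largest in each direction were taken (6 for G2/M over S), without predicted genes. Of each of 37 lists the highest and lowest members were given where they helped, and a fixed set of regulators always. The cells, lists and rules were chosen with earlier results of these data known. Alternatives were the mean of per-cell CPM, thinning to 100000 counts, other pseudocounts and minima, other scalings, other sets of cells, and leaving out the highest cell. Values of E11.5 GL58 and list counts within cluster 2 were added after the data had been seen.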

Additional observations from a re-analysis of the deposited data

How the results depend on the processing

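Of the 24 genes named outside the cell cycle lists, 19 were at least 2-fold in the same direction under every alternative, and of 6 list medians at least 2-fold, 3 were. Against 4.89% of genes higher and 6.18% lower (466 and 589 of 9527), a minimum of 1 CPM gave 9.96% and 10.56% of 14625 genes, a minimum of 50 CPM 3.02% and 2.53% of 4508, and S cells alone 7.26% and 10.96% of 9672. Within cluster 2, 7.93% of 9405 genes were higher, 3.75% of 9527 were lower with a pseudocount of 5 CPM, and 3.72% of 8996 were lower without the highest cell of each gene. The median log2 ratio of licensing genes (0.16) was 0.51 for S alone, -0.057 for G2/M alone and 0.039 without clusters 6 to 10. That of mitotic cyclins and kinases (1.86) was 1.67 for S alone, 2.04 for G2/M alone, 1.61 within cluster 2 and 2.36 without the highest cell. That of haematopoietic surface genes (-0.93) was -0.84 with the mean of per-cell CPM, -0.77 with a pseudocount of 5 CPM, -0.83 with a minimum of 50 CPM, -0.35 for S alone, -1.09 for G2/M alone and -0.17 within cluster 2. Of the values at least 2-fold, sign changes were found for Mxd3 in S alone (-0.072), for the germ cell list without clusters 6 to 10 (-0.78) and for Kcne3 within cluster 2 (-0.043). List medians under 2-fold also changed sign under some alternatives, among them those of licensing, arterial, venous, Notch and D cyclin genes. Except where the alternative itself has fewer genes or cells, the cause was not tested. GL69 alone was not run, since it held 3 G1 cells. No paired analysis was possible because cells carry no shared number and no result came from a test. Genes at few CPM rest on reads in a few cells.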

Other observations

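Other groups fixed for these cells differed little between phases. Cholesterol synthesis genes had a median log2 ratio of cycling over G1 of -0.32 (0 of 15 past 2-fold), with Cyp51 lowest at -0.71, and 0.12 within cluster 2. Of 10 BMP and TGF-beta response genes 1 was at least 2-fold lower and 0 higher, with a median of 0.16. That gene was Smad6, an inhibitor of BMP signalling, at 37.1 CPM in G1 and 9.07 in cycling cells (log2 ratio -1.92, and -1.35 within cluster 2), with reads in 13 of 24 and 18 of 63 cells. The BMP target Id3 had a ratio of 0.78. Of 12 fringe and Notch processing genes, the atypical ligand gene Dlk1 was at least 2-fold lower (-1.56, and -0.97 within cluster 2), and the median was -0.33. The 2 measured Notch targets had a median of -0.03.

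Of 10 venous and lymphatic genes, 3 were at least 2-fold lower in cycling cells, Lyve1, Stab2 (-1.55) and Prox1 (-1.09), with Aplnr highest at 0.65. A single G1 cell held 64.9% of the Prox1 reads of G1 cells. Of 5 megakaryocyte and platelet genes the receptor gene Clec1b was higher (1.55) and the integrin gene Itgb3 lower (-1.16), and within cluster 2 these were at 1.69 and -0.40.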
